A study of Brassica oleracea var. italica with 5 samples.

Results

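The growth regulating factors *GRF1* to *GRF5*, their coactivator *AN3* and the organ growth factor *ANT* were followed through early growth of broccoli sprouts. The members are the unigenes (assembled transcripts, 1 kept per matched gene) whose matched *Arabidopsis* locus is AT2G22840 (*GRF1*), AT4G37740 (*GRF2*), AT2G36400 (*GRF3*), AT3G52910 (*GRF4*), AT3G13960 (*GRF5*), AT5G28640 (*AN3*) or AT4G37750 (*ANT*). Each locus had 1 unigene, which gave 7 members among 19441 unigenes, of which 18224 were matched to an *Arabidopsis* locus. The rule used the locus alone and no measured value. The plants were broccoli (*Brassica oleracea* var. *italica*), cultivar Qingxiu. RNA came from seeds, labelled as germinated and day 0, from cotyledons (seed leaves) labelled 3, 7 and 11 days after germination, and from euphyllas (the first true leaves) labelled 11 days. The seeds were surface sterilised with NaClO and kept overnight on wet filter paper, while the sprouts grew in peat and vermiculite with nutrient solution, so the seed library also differs from the others in its handling. Each of the 5 groups was 1 library made from a pool of 3 biological replicates, so the spread between plants cannot be measured and no p-value is given.

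GRF proteins are plant transcription factors with a WRC domain that binds DNA and a QLQ domain that binds coactivators of the GIF family. AN3, also called GIF1, is such a coactivator, and in *Arabidopsis* the GRF and AN3 complex recruits SWI/SNF chromatin remodelling enzymes and keeps young leaf cells dividing. The microRNA miR396 cleaves the transcripts of most *Arabidopsis* GRF genes in older leaf tissue, *GRF5* being an exception. ANT is an AP2-type transcription factor that acts downstream of the auxin-induced gene *ARGOS* and prolongs cell division in growing organs. Mutants that lack AN3 or ANT form small leaves with fewer cells.

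The values are normalized read counts, that is, the reads mapped to a unigene divided by the size factor of its library, which puts the libraries on a common scale. The libraries held from 6802615 mapped reads (11 day euphyllas) to 10312625 (11 day cotyledons), and 1 read was worth from 0.708 (seeds) to 1.16 (11 day euphyllas) normalized reads. Each ratio of normalized read counts is followed by its exact 95% binomial interval in brackets, a measure of counting error alone. Every library has more counts than the study's sequencing summary lists trimmed read pairs, so mates or multiple placements were counted separately and true intervals are wider. A call of higher or lower needed a ratio of 2 or more, an interval without 1, and 20 or more reads in the pair of libraries. Folds against 0 reads are taken against a floor of 3 reads, and they are not interval limits. The comparisons share libraries, so the same counts enter more than 1 of them.

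The member unigenes were between 1369 bp (*AN3*) and 2751 bp (*ANT*) long and held between 128 reads (*GRF4*) and 804 reads (*GRF1*) over the 5 libraries. Their lengths were 58.8% (*GRF1*) to 95.3% (*ANT*) of that of the matched *Arabidopsis* gene, measured from start to end on the chromosome. The exception was *GRF5*, whose unigene of 2175 bp was longer than the matched gene of 2016 bp. These are ratios of lengths, not shares of a transcript recovered. *B. oleracea* carries several copies of many *Arabidopsis* genes, so a unigene may hold the reads of more than 1 copy. *GRF2* and *ANT* are neighbours in *Arabidopsis*. In the annotation table, which names no build, *GRF2* lies on chromosome 4 from 17725337 to 17727730 and *ANT* from 17739514 to 17742401, with 11783 bp between them. Of the functional terms in the same table, leaf development was given to the GRF unigenes and *AN3*, 6 of the 7 members, and to 111 of all unigenes.

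The tissue labels were checked against marker genes. Of the 7 seed markers (storage proteins, oleosins and late embryogenesis proteins) 6 had a unigene, and their summed normalized read count was 2821 in seeds and between 4.62 and 65.1 in the other libraries. The 4 green tissue markers with a unigene summed to 999 in seeds and to between 46570 and 273027 elsewhere. Root markers were present in every library, with a sum between 105 (11 day cotyledons) and 521 (11 day euphyllas), most of it from *SCR*, which leaves also express. Of 8 shoot meristem and organ boundary markers, *STM*, *KNAT1* and *KNAT2* had a unigene, and *WUS*, *CLV3*, *CUC1*, *CUC2* and *CUC3* had none. The 3 with a unigene summed to 82.8 in seeds and to 26.4 and 57.8 in cotyledons of 3 and 7 days, and had 0 reads in either library of day 11.

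*GRF1* and *GRF3* were highest in seeds. The normalized read count of *GRF1* was 364 in seeds, dropped to 167, 35.7 and 9.65 as the cotyledons aged from 3 through 7 to 11 days, and was 94.8 in euphyllas. It fell at each cotyledon age, and no interval between neighbours in the order of its levels held 1. *GRF3* had a normalized read count of 376 in seeds, of 81.4, 60.9 and 2.14 (2 reads) in cotyledons of increasing age, and of 132 in euphyllas. Its 3 day and 7 day cotyledons were not distinguishable by counting error, with a ratio of 1.34 (0.941 to 1.91). Seeds held 54.3% of the summed normalized reads of *GRF1* and 57.7% of those of *GRF3*.

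*GRF2*, *GRF4* and *GRF5* had their highest value in 11 day euphyllas. *GRF2* had a normalized read count of 70.8 in seeds, 189 in the youngest cotyledons, 17.9 at 7 days, 0 (0 reads) at 11 days, and 235 in euphyllas. Its value in 3 day cotyledons came second, 1.24-fold (1.01 to 1.52) below that of the euphyllas. *GRF4* was low in every cotyledon and in seeds, with 14.2 normalized reads in seeds and 7.12, 13.7 and 1.07 (1 read) in the cotyledons, against 101 in euphyllas. The euphyllas held 73.6% of its summed normalized reads, and the neighbours in the order of its other levels could not be told apart by counting error. *GRF5*, the member without a miR396 site in *Arabidopsis*, had 176 normalized reads in seeds, 41.7, 24.2 and 2.14 (2 reads) along the cotyledon series, and 191 in euphyllas. Its euphyllas and seeds were not distinguishable, with a ratio of 1.08 (0.883 to 1.32), and seeds came first when libraries were scaled by total reads.

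*AN3*, the coactivator, was a seed transcript in these libraries. Its normalized read count was 241 in seeds, but 10.2, 29.4 and 0 (0 reads) at the successive cotyledon ages, with 34.7 in euphyllas. Seeds held 76.5% of the sum, the highest share of any member in 1 library. The 11 day euphyllas and the 7 day cotyledons were not distinguishable, with a ratio of 1.18 (0.681 to 2.05).

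*ANT* was lowest where *AN3* was highest. Its normalized read count was 5.66 (8 reads) in seeds, climbed to 55.9 and 119.7 in cotyledons of 3 and 7 days, stood at 25.7 at 11 days and reached 354.8 in euphyllas. The 5 levels were all separated from their neighbours by more than counting error, and the euphyllas held 63.1% of the sum. *ANT* was the member that had its minimum in seeds, while the other 6 had theirs in 11 day cotyledons. Of the 18104 unigenes with at least 20 reads, 24.6% were lowest in 11 day cotyledons and 27.2% in seeds. The highest value fell in seeds for 29.3% of them and in 11 day euphyllas for 13.2%, against 3 and 4 of the 7 members.

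**Figure D1:**
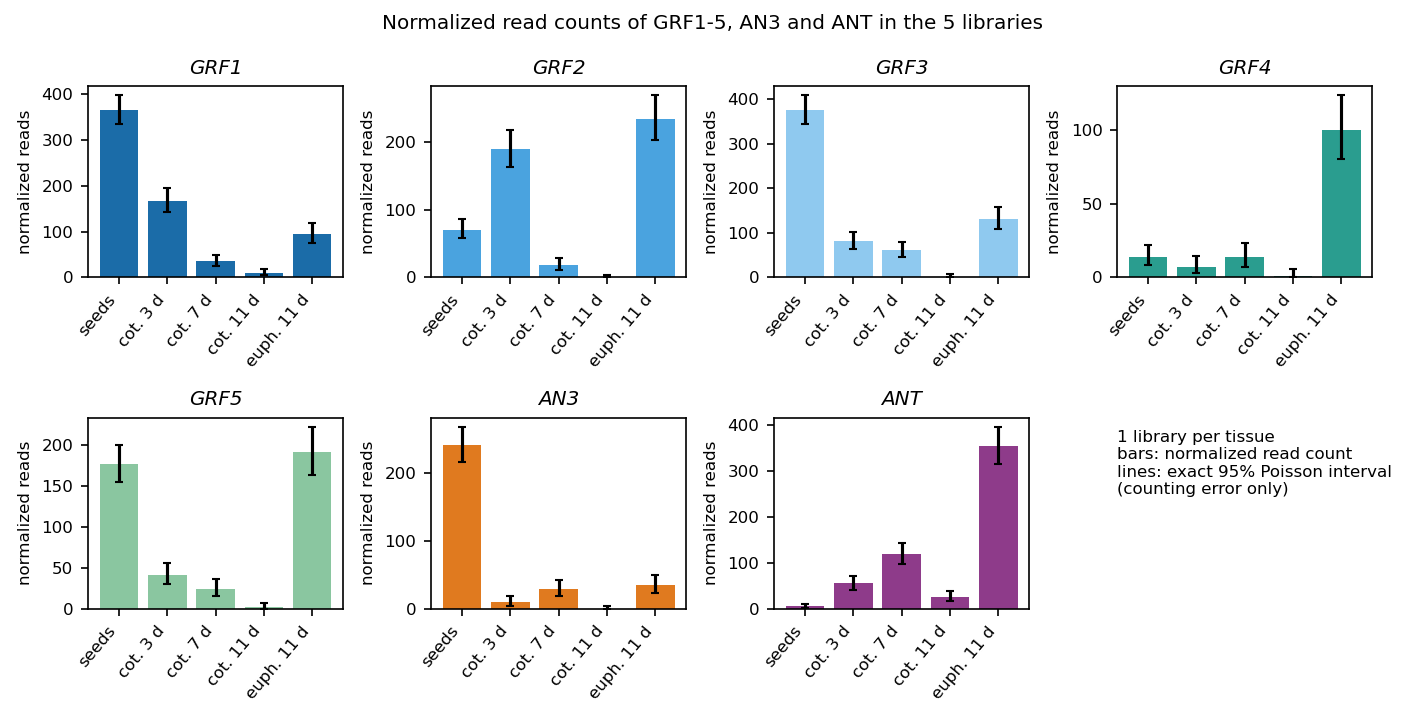
Normalized read count (vertical axis, a separate linear scale for each gene) of *GRF1* to *GRF5*, *AN3* and *ANT* in seeds, cotyledons (cot.) of 3, 7 and 11 days and 11 day euphyllas (euph.). Bars are single libraries and lines are exact 95% Poisson intervals of the counts. The GRF genes and *AN3* had 0 to 9 reads each in 11 day cotyledons, and *GRF2*, *GRF4*, *GRF5* and *ANT* were highest in the euphyllas.

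From seeds to 3 day cotyledons, the members moved in both directions. *GRF2* was 2.67-fold (2.09 to 3.44) higher and *ANT* 9.88-fold (4.68 to 24.0) higher in the cotyledons. *AN3* was 23.7-fold (12.7 to 49.9) lower, *GRF3* 4.63-fold (3.65 to 5.93) lower, *GRF5* 4.23-fold (3.03 to 6.03) lower and *GRF1* 2.18-fold (1.83 to 2.62) lower. *GRF4*, with 20 and 7 reads, was not called. So 2 of 7 members were called higher and 4 lower, where 22.1% of the 16455 unigenes tested were called higher and 22.5% lower. Whole germinated seeds were set against cotyledons here, so organ, age and handling cannot be told apart, and in bulk tissue fewer cells of a type and less RNA per cell cannot be told apart.

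Between 3 and 7 days, the cotyledons lost *GRF1* and *GRF2* reads and gained those of *AN3* and *ANT*. *GRF2* fell 10.6-fold (6.44 to 18.6) and *GRF1* 4.67-fold (3.21 to 6.97). *AN3*, with 10 and 28 reads, was 2.89-fold (1.36 to 6.67) higher and *ANT* 2.14-fold (1.54 to 3.01) higher at 7 days. *GRF3*, *GRF4* and *GRF5* were not called, with ratios of 7 over 3 days of 0.749, 1.92 and 0.579. The 2 members called higher and 2 called lower compare with 23.3% and 15.4% of the 16307 unigenes tested. The *ANT* call was lost when libraries were scaled by total reads, where its log2 ratio was 0.65. Of the meristem markers, *KNAT1* (12 and 29 reads) and *KNAT2* (8 and 19 reads) were also higher at 7 than at 3 days, calls that were lost with the same scaling, and their part in the result was not tested.

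Between 7 and 11 days, the cotyledons lost nearly all reads of the members. *GRF3* went from 58 to 2 reads, 28.4-fold (7.52 to 240.2) lower, and *GRF5* from 23 to 2 reads, 11.3-fold (2.78 to 98.6) lower. *AN3* went from 28 to 0 reads, 9.14-fold lower against the floor, with a lower interval limit of 6.96. *ANT* fell 4.65-fold (2.98 to 7.56) and *GRF1* 3.70-fold (1.74 to 8.77). *GRF2* (17 and 0 reads) and *GRF4* (13 and 1 reads) were under the minimum of reads. All 5 members tested were called lower and 0 higher, where 18.4% of the 16396 unigenes tested were called lower and 19.4% higher. The number called lower became 1 when 100 reads were required, since only *ANT* had that many. Together the 7 members had 287 reads at 7 days and 38 at 11 days, in libraries of nearly equal depth (10285969 and 10312625 mapped reads). Over the same step the meristem markers with a unigene went to 0 (*KNAT1* from 29 reads, *KNAT2* from 19 and *STM* from 7), and their part in the result was not tested.

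In 11 day euphyllas, all 7 members were higher than in cotyledons of the same age. The best counted was *ANT*, with 24 reads in cotyledons and 307 in euphyllas, 13.8-fold (9.09 to 21.9) higher. *GRF1*, with 9 and 82 reads, was 9.82-fold (4.93 to 22.2) higher. Against the floor, *GRF2* (0 and 203 reads) was 72.9-fold and *AN3* (0 and 30 reads) 10.8-fold higher, with lower interval limits of 58.8 and 8.24. *GRF3* (2 and 114 reads), *GRF4* (1 and 87 reads) and *GRF5* (2 and 165 reads) were 61.4-fold, 93.8-fold and 88.9-fold higher, with lower interval bounds of 16.6, 16.4 and 24.2. The background was 21.0% of 16291 unigenes called higher and 26.3% called lower. The median log2 ratio over the 7 members was 5.40 with a pseudocount of 1, 3.35 with a pseudocount of 10 and 5.94 with counts of 0 set to the floor, against -0.10, -0.09 and -0.10 over all unigenes tested. *STM*, *KNAT1* and *KNAT2* had 0 reads in both libraries.

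Since the 11 day cotyledons held so few reads, the euphyllas were also set against the younger cotyledons, a comparison added after the values were seen. Against 7 day cotyledons, 6 of 7 members were higher in euphyllas, from 2.16-fold (*GRF3*) to 13.1-fold (*GRF2*), and *AN3* was not called. In that comparison 11.6% of the 16175 unigenes tested were called higher and 17.2% lower. Against 3 day cotyledons, *GRF4* was 14.1-fold (6.57 to 36.2), *GRF5* 4.57-fold (3.23 to 6.60), *AN3* 3.41-fold (1.62 to 7.82) and *ANT* 6.34-fold higher in euphyllas, and 0 members were lower. Of the 15864 unigenes tested there, 14.9% were called higher and 10.2% lower.

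All 7 members had reads in both seeds and euphyllas, at levels that differed for 6 of them. *ANT* was 62.7-fold (31.4 to 146) higher, *GRF4* 7.10-fold (4.33 to 12.2) higher and *GRF2* 3.31-fold (2.60 to 4.26) higher in euphyllas than in seeds. *AN3* was 6.96-fold (4.79 to 10.5) lower, *GRF1* 3.85-fold (3.04 to 4.92) lower and *GRF3* 2.86-fold (2.33 to 3.53) lower. *GRF5* was not called. The 3 members called higher and 3 called lower compare with 25.6% and 24.4% of the 16649 unigenes tested.

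**Figure D2:**
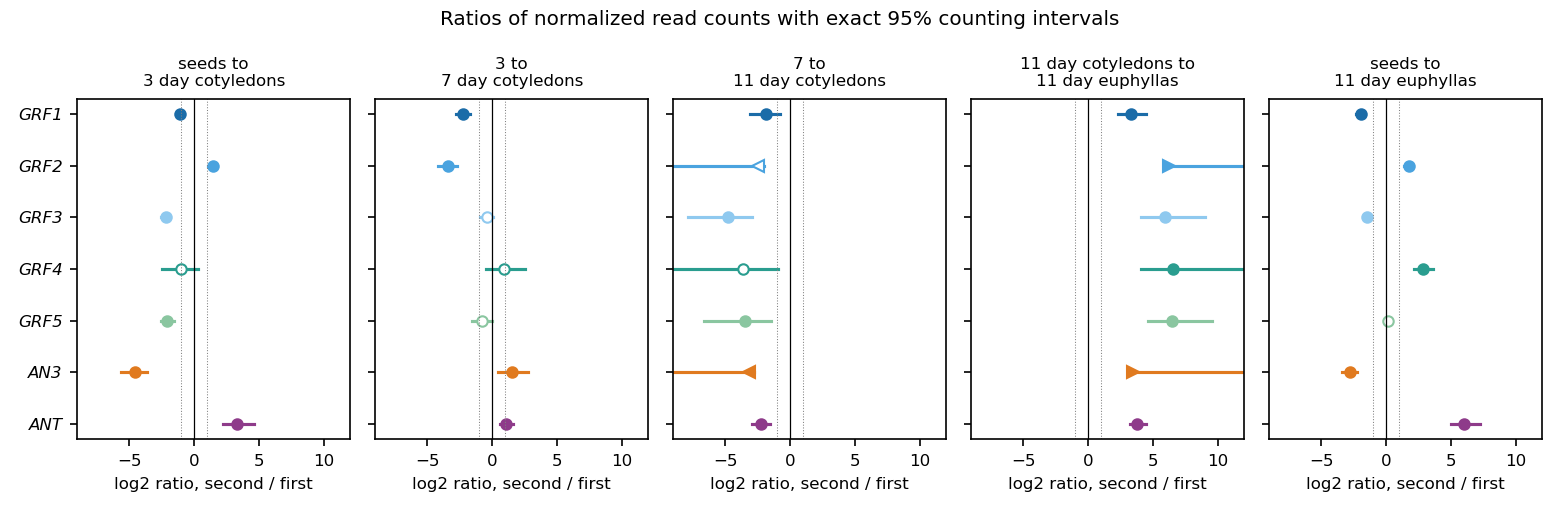
Log2 ratio of normalized read counts, second over first library, for each gene in 5 comparisons. Circles are ratios and lines exact 95% counting intervals (cut at the panel edge). Triangles are folds against the floor of 3 reads where 1 library had 0 reads. Filled symbols are called unigenes and open symbols unigenes not called or under 20 reads. Dotted lines mark a ratio of 2 either way. All 7 genes lie to the right of the dotted line from 11 day cotyledons to euphyllas, whereas seeds against euphyllas split 3 and 3 with *GRF5* near 0.

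The makeup of the members' own reads within a library does not depend on how libraries are scaled. *AN3* took 19.4% (exact interval 17.6 to 21.3) of the reads of *AN3* and the 5 GRF genes in seeds, 2.05% (0.987 to 3.74) in cotyledons at 3 days, 16.2% (11.0 to 22.5) at 7 days, and 4.41% (2.99 to 6.23) in euphyllas. In 11 day cotyledons it had 0 of 14 reads (exact interval 0 to 23.2%). The share of *AN3* was thus higher in seeds and 7 day cotyledons than in 3 day cotyledons and euphyllas, beyond counting error. Per kb of unigene, the 5 GRF genes summed to 541 normalized reads in seeds, to 257, 79.0 and 9.02 in cotyledons of 3, 7 and 11 days, and to 372 in euphyllas. *AN3* stood at 176, 7.43, 21.5, 0 and 25.3 per kb in the same order. *ANT* rose from 0.453% (0.196 to 0.891) of the reads of all 7 members in seeds to 10.1% (7.72 to 13.0) in 3 day cotyledons and 39.7% (34.0 to 45.6) in 7 day cotyledons. It held 63.2% (46.0 to 78.2) of the 38 reads in 11 day cotyledons and 31.1% (28.2 to 34.1) in euphyllas.

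Levels were compared between the members per kb of unigene. *GRF1* led in seeds, with 244 normalized reads per kb, ahead of *GRF3* (177) and *AN3* (176), and in 3 day cotyledons, with 111 ahead of *GRF2* (84.3). *ANT* led in 7 day cotyledons (43.5), 11 day cotyledons (9.35) and euphyllas (129). In the euphyllas *GRF2* (105) and *GRF5* (87.7) came next and *AN3* (25.3) last. Without the division by length, *GRF3* led in seeds and *GRF2* in 3 day cotyledons, and *ANT* kept the first place in the other 3 libraries.

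**Figure D3:**
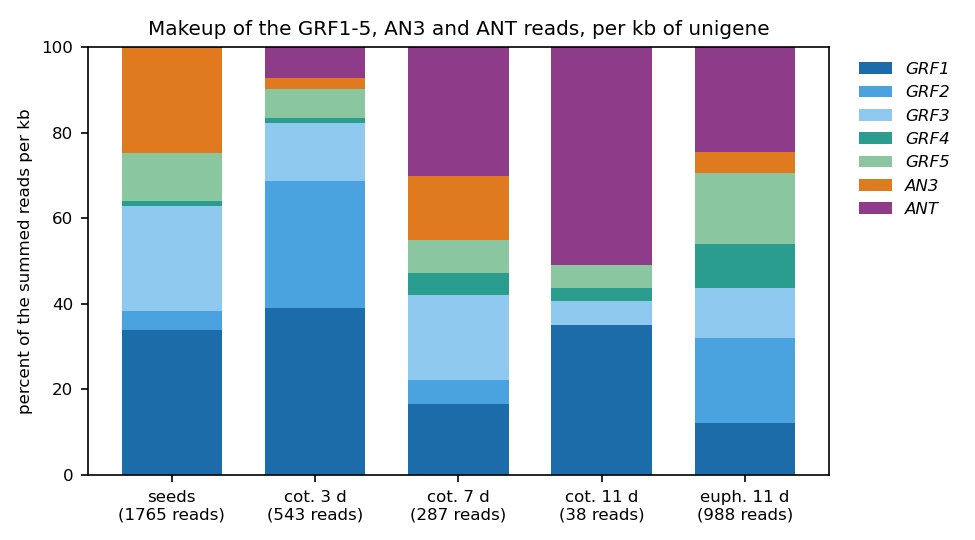
Percent of the summed normalized reads per kb of unigene (vertical axis) that each of the 7 genes took in each library, with the number of their reads under each bar. *AN3* filled 24.5% of the seed bar and 2.61% of the 3 day cotyledon bar, and *ANT* took 0.286% of the seed bar and 50.9% of that for 11 day cotyledons, which rests on 38 reads.

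The remaining GRF and GIF genes had several patterns. *GRF8* had 513 reads in seeds, 14 in 3 day cotyledons, 0 in 7 and 11 day cotyledons and 5 in euphyllas, and *GRF7* had 63, 36, 0, 0 and 2 in the same order. Neither was restored in euphyllas to its seed level, *GRF8* being 62.8-fold (26.7 to 194) and *GRF7* 19.3-fold (5.12 to 163) lower there. *GRF9* had normalized read counts of 27.6, 26.4, 22.1, 2.14 (2 reads) and 43.9. It was called lower from 7 to 11 day cotyledons, 10.3-fold (2.51 to 90.5), and higher in euphyllas than in 11 day cotyledons, 20.5-fold (5.29 to 175). *GRF6* had between 0 and 8 reads on a unigene of 486 bp, and *GIF3* had no unigene. *GIF2*, the close relative of *AN3*, had normalized read counts of 674, 637, 453, 459 and 567 from seeds to euphyllas and was called in none of the 5 comparisons.

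The relatives of *ANT* were mostly seed transcripts. From seeds to euphyllas 4 of the 5 tested were called lower and 0 higher, where 24.4% of all unigenes tested were called lower and 25.6% higher, and the median log2 ratio was -2.00. *AIL1* had 920, 205, 5, 4 and 1 reads from seeds to euphyllas, and *BBM*, a factor of embryo formation, had 129, 1, 1, 0 and 1. *PLT1* had 3 reads in seeds and 0 elsewhere on a unigene of 209 bp, *AIL7* had between 10 and 62, and *PLT2* had no unigene. *AIL5* and *AIL6* returned in euphyllas. *AIL5* had normalized read counts of 1881, 959, 260.5, 51.5 and 470.3, and was 9.14-fold (6.76 to 12.6) higher in euphyllas than in 11 day cotyledons. *AIL6* went from 0 to 81 reads, 29.1-fold higher against the floor.

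The SWI/SNF subunits, which GRF and AN3 complexes recruit, were seldom called. All 10 had a unigene, and from 7 to 11 day cotyledons 0 of 10 were called in either direction, with a median log2 ratio of -0.02. Over all unigenes tested, 18.4% were called lower and 19.4% higher in that step. In euphyllas *SWI3C* was 2.95-fold (2.47 to 3.55) and *ARP7* 2.25-fold (1.67 to 3.06) higher than in 11 day cotyledons. The other 8 were not called. These 2 of 10 are near the 21.0% of all unigenes tested that were called higher, while 26.3% were called lower. With scaling by total reads, 7 of 10 were called higher, where 5256 of all 16291 unigenes were. The ATPase *SYD* had normalized read counts of 3108, 1924, 1965, 2114 and 2239 from seeds to euphyllas.

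The CIN-type TCP factors act against cell division in leaves, and TCP4 activates a miR396 gene in *Arabidopsis*. All 5 had reads in every library. In euphyllas *TCP2* (2.51-fold), *TCP3* (2.83-fold) and *TCP4* (2.30-fold) were called higher than in 11 day cotyledons, and 0 were called lower. Of all unigenes tested, 21.0% were called higher and 26.3% lower in that comparison. *GRF1* to *GRF5* were also higher there, by 9.82-fold (*GRF1*) or more. From 7 to 11 day cotyledons, *TCP10* was called lower (2.40-fold) and 0 were called higher, where 18.4% and 19.4% of all unigenes tested were. MicroRNAs were not measured in these libraries of polyadenylated RNA.

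Among genes that AN3 binds in *Arabidopsis*, *HEC1* had normalized read counts of 103 in seeds and 124 in 3 day cotyledons, and 3, 1 and 0 reads in the later libraries. *ARR4*, a cytokinin response regulator, had normalized read counts of 9.20, 145, 558, 106 and 92.4 from seeds to euphyllas, and *COL5* had 273, 217, 934, 447 and 232. *CRF2* had 163, 54, 47, 22 and 65 reads and was the 1 of the 3 tested that was higher in euphyllas than in 11 day cotyledons, 3.18-fold (1.94 to 5.42). All 3 tested were called lower from 7 to 11 day cotyledons. *COL5* and *CRF2* (normalized read counts of 49.4 and 23.6) were only just past the required ratio of 2. Over all unigenes tested, 18.4% were called lower in that step and 21.0% higher from 11 day cotyledons to euphyllas.

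*ARGOS*, which acts upstream of *ANT* in *Arabidopsis*, had 6, 0, 37, 23 and 8 reads from seeds to euphyllas, and was 2.67-fold lower in euphyllas than in 11 day cotyledons, a call lost with scaling by total reads. Its relative *ARL* had 1210, 103, 7, 2 and 18 reads in the same order, and was called higher in euphyllas than in 11 day cotyledons. Of the D-type cyclins, which drive entry into the cell cycle, *CYCD3;2* went from 3 reads in 11 day cotyledons to 111 in euphyllas, 39.9-fold (13.3 to 196) higher, and *CYCD3;3* from 8 to 42, 5.66-fold higher with a lower interval bound of 2.62. *CYCD3;1* went the other way, 2.39-fold lower with the deposited size factors and not called with scaling by total reads. Its unigene of 6073 bp is far longer than the matched gene of 1916 bp, so that reads of other sequence may be in its counts.

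Of the other organ size genes, 3 of 13 tested were called higher and 2 lower from 11 day cotyledons to euphyllas, near the 21.0% and 26.3% over all unigenes tested. With scaling by total reads, 6 were called higher and 1 lower, where 5256 and 2971 of all 16291 unigenes were. *JAG*, a zinc finger factor that prolongs growth at the leaf margin, went from 0 to 40 reads, 14.4-fold higher against the floor. *BB*, an E3 ubiquitin ligase that limits organ size, was 3.77-fold and *KIX9*, an adaptor of the PEAPOD repressor, 4.47-fold higher. *ROT3*, a cytochrome P450 of leaf lengthening, went from 87 to 2 reads, 40.4-fold lower, with an interval of 10.8 to 339, and *DA1*, a peptidase that limits growth, was 2.23-fold lower. *PPD1* and *NUB* had no unigene.

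The markers of dividing cells that were called between the later libraries moved in the direction of the members, but not all in both steps. Of 14 markers 12 had a unigene, *CDKB1;1* and *PCNA2* having none. From 7 to 11 day cotyledons 7 of 12 were called lower and 0 higher, and from 11 day cotyledons to euphyllas 8 were called higher and 0 lower, against 18.4% and 21.0% of all unigenes tested. *KNOLLE*, a syntaxin of cytokinesis, went from 65 to 7 and then to 291 reads, and *HINKEL*, a kinesin of cytokinesis, from 312 to 22 and then to 821. *MCM5*, a subunit of the replication helicase, went from 392 to 62 and then to 638, and *PCNA1*, the replication clamp, from 239 to 54 and then to 395. *CDKB2;1* (173, 125 and 264 reads) and *CDKB2;2* (543, 278 and 616 reads) were called from 11 day cotyledons to euphyllas alone. *CYCB1;1* did not follow, with 141, 273 and 281 reads. Neither did *CYCB1;2* (48, 34 and 52 reads) or *CYCB1;3* (45, 41 and 38 reads), which were called in neither step. *MCM2* fell from 3670 to 1592 reads but did not return in euphyllas, with 1503. The *MCM2* unigene of 5898 bp is longer than the matched gene of 4427 bp, so reads of other sequence may be in its counts. The summed normalized read count of the 12 was 2800 in seeds, 3835 in 3 day, 6152 in 7 day and 2708 in 11 day cotyledons and 6174 in euphyllas, and *MCM2* alone made up 3855 of the sum at 7 days. The median of the 12 was 115 in seeds, 224 in 3 day, 165 in 7 day and 50.9 in 11 day cotyledons and 330.5 in euphyllas, so the median did not share the rise of the sum from 3 to 7 days. No defining marker of the list was at 0 in any library, and the part of dividing cells in the members' values was not tested.

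**Figure D4:**
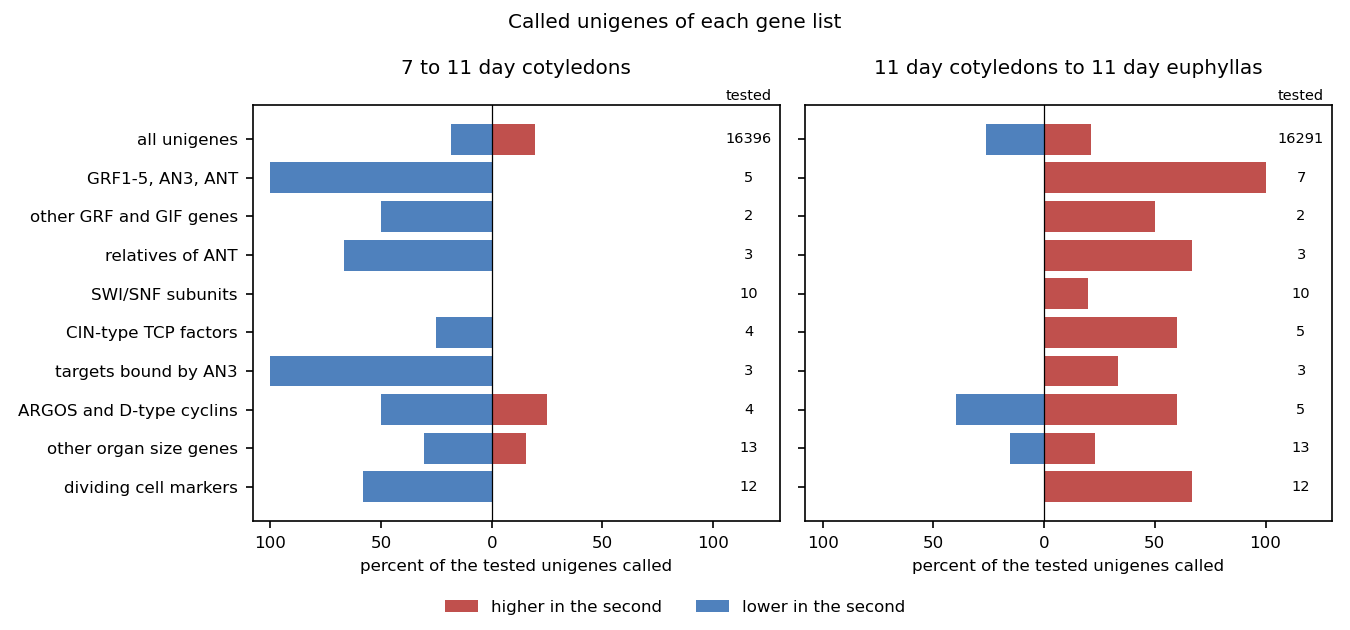
Percent of the tested unigenes of each gene list called higher (red, to the right) or lower (blue, to the left) in the second library, with the number tested at the right. Left panel, 7 to 11 day cotyledons; right panel, 11 day cotyledons to 11 day euphyllas. All tested members are on the lower side on the left and on the higher side on the right, and 7 and 8 of the 12 dividing cell markers lie on the same sides; lists of 2 to 5 genes move by large steps, and the SWI/SNF bar on the right grows from 2 to 7 of 10 with scaling by total reads.

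The profiles of the members over the 5 libraries were also compared with each other, as Pearson's r of log2 values, which is a description over 5 points from shared libraries. The closest pairs were *GRF3* with *AN3* (r = 0.956), *GRF3* with *GRF5* (r = 0.952) and *GRF1* with *GRF3* (r = 0.926). *ANT* was closest to *GRF4* (r = 0.58).

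Among the 13752 other unigenes with at least 200 reads, the 3 most like *GRF1* by the same r were all ribosomal protein genes, *RPL19C*, *PGY1* and *RPL27C* (r from 0.9996 to 0.9998). *RPL19C* had 276, 125, 58, 30 and 85 reads from seeds to euphyllas, a narrower range than the 515, 164, 34, 9 and 82 of *GRF1*. The genes most like the others were AT5G38600, *NRPD2A* and *scpl42* for *GRF2*, *POLD1* (a DNA polymerase subunit), *ATCHR12* and AT1G59660 for *GRF3*, and *HAC1* (a histone acetyltransferase), *ATBCAT-5* and *ALY2* for *GRF4*. They were AT4G35930, AT3G26935 and AT3G54760 for *GRF5*, AT4G17080, *CPSF30* and AT3G23160 for *AN3*, and AT2G44830, *ATREV3* and AT2G16630 for *ANT*. AT2G44830, annotated as a protein kinase, had 64, 172, 229, 98 and 398 reads. *ATREV3* was nearly flat, with normalized read counts of 61.6, 69.2, 72.5, 66.5 and 75.1. Its r with *ANT* was 0.236 with scaling by total reads. These names rest on the scale, since 0 of the 3 stayed among the top 3 of any member with linear values, and with scaling by total reads 1 stayed for *GRF1* and for *ANT* and 0 for the others. With 5 points, 44 (*GRF4*) to 640 (*GRF1*) unigenes reached an r of 0.95.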

How the data were processed

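RNA of 5 tissue pools of broccoli sprouts was sequenced on the Illumina MiSeq platform as 1 library each. The authors trimmed the paired reads, assembled them with Velvet and Oases, took the top BLAST hit of each transcript and mapped reads to the unigenes with Bowtie. Tool versions were not given in the sources used. The deposited counts are raw reads per unigene, in 10 tables for pairs of libraries, with the same counts in each table that holds a library. The deposited normalized signal was made by the authors by dividing counts by DESeq size factors. Another 20 columns of RPKM and the authors' comparison columns (fold change, log2 fold change, p-value, FDR) were not used.

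Ratios were computed here from counts and deposited size factors, with exact conditional binomial (Clopper-Pearson) intervals at 95%, for all unigenes, in Python 3.11.15 with scipy 1.17.1. List medians used a pseudocount of 1. Sequence and genome coordinates of the broccoli unigenes were not used here. The procedure was tested on simulated counts that held counting error alone, with changes placed only in well counted unigenes. That test does not cover the spread between plants, mates counted separately, or changes in unigenes with few reads. Alternatives were scaling by total reads or by TMM factors (edgeR 4.0.16), no minimum or 100 reads, a ratio of 4 and a 99.9% interval. Genes named were every member, the called genes and up to 3 others of each list, and the 3 unigenes most like each member. Not all called list genes are described. The members and the 12 gene lists were chosen with earlier results of these data known.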

Additional observations from a re-analysis of the deposited data

How the results depend on the processing

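Scaling by TMM factors changed the call of 0 of 35 member ratios, and 0 ratios that were called changed direction under any setting. Scaling by total reads moved the median log2 ratio of all unigenes from 0.04 to -0.39 between 3 and 7 day cotyledons and from -0.10 to 0.38 between 11 day cotyledons and euphyllas. The share of higher among called unigenes went from 60.1% to 37.7% and from 44.4% to 63.9% in those comparisons, and from 49.6% to 39.3% between seeds and 3 day cotyledons. From 3 to 7 day cotyledons the members called higher were then 1 (*AN3*), and *GRF5* was called lower with a log2 ratio of -1.19. With at least 100 reads required, the members called higher were 1 (*GRF2*) from seeds to 3 day cotyledons, 1 (*ANT*) from 3 to 7 days and 4 (*GRF2*, *GRF3*, *GRF5* and *ANT*) from 11 day cotyledons to euphyllas, and 1 (*ANT*) was lower from 7 to 11 days, because fewer members were tested. With a ratio of at least 4, those higher were 1 (*ANT*) from seeds to 3 day cotyledons and 0 from 3 to 7 days, and 1 (*AN3*) was lower from seeds to euphyllas. With the wider interval, 1 (*ANT*) was higher from 3 to 7 days. With no minimum of reads, all 7 were lower from 7 to 11 days. With 3 day cotyledons in place of 11 day cotyledons, 4 members were higher in euphyllas. A pseudocount of 10 moved 5 of 35 medians of the gene lists beside the members. No replicate could be left out and no paired analysis was possible because each tissue was 1 library. Depth limits the ratios of *GRF4*, which had 20 reads or fewer in each library other than euphyllas.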

Other observations

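The dividing cell markers differed among themselves in seeds. *PCNA1* had its highest normalized read count there (812, against 57.9 to 456 elsewhere). So did the cyclins *CYCB1;2* (94.8, against 36.5 to 60.1 elsewhere) and *CYCB1;3* (79.3, against 31.5 to 47.3 elsewhere). By contrast, *HINKEL* and *KNOLLE* had 4 and 5 reads in seeds. In 3 day cotyledons they had 248 and 53 reads, 89.1-fold (34.4 to 329.7) and 15.2-fold (6.13 to 48.8) higher. The replication genes *MCM2* and *MCM5* did not share the seed peak of *PCNA1*. *MCM2*, whose unigene is longer than its matched gene, was lowest in seeds (741, against 1180 to 3855 elsewhere). *MCM5* stood at 235 in seeds and 737 in euphyllas. *CDT1A* stood at 172 (243 reads) in seeds and 202 (175 reads) in euphyllas, too close to say which was higher. *GRF1*, *GRF3* and *AN3* had their highest values in the same seed library, as did 29.3% of the 18104 unigenes with at least 20 reads.

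*CYP78A5*, the cytochrome P450 KLUH that promotes organ growth in *Arabidopsis*, had 4 reads in seeds, then 26, 129 and 0 along the cotyledon series, and 16 in euphyllas. It was 42.1-fold lower, against the floor, in 11 day than in 7 day cotyledons. *SPT*, a bHLH factor that limits leaf size, had normalized read counts of 241, 307, 8.40, 32.2 and 42.8 in the same order and was 36.6-fold lower at 7 than at 3 days.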
